A study of Mus musculus with 15 samples.

Results

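The microRNAs miR-191 and miR-425 are cut from a pair of neighbouring hairpins, and both strands of each hairpin were measured in mouse islet cell lines with and without inflammatory cytokines. Every assay named for miR-191 or miR-425 was taken, whatever its strand. This gave 4 of the 584 miRNA assays on the cards, mmu-miR-191, mmu-miR-191*, mmu-miR-425 and mmu-miR-425*. The locus was chosen by a readout of these samples, the cytokine response of mmu-miR-191*, an assay that the study tabulated for its response but did not mark as significant after adjustment. The cytokine values of the 4 assays are therefore given as a description with no test, and tests are given for the cell lines and for time in culture without cytokines. These are not fully free of the choice, since the untreated αTC1-6 samples in them are also the controls of the cytokine readout. Mmu-miR-191* and its ratio to its main strand are therefore given without a p throughout.

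A miRNA hairpin is cut by the enzyme Dicer into a short duplex. One strand, the main strand, is usually loaded into an Argonaute protein and kept, and the other, written with a star in the older names, is usually degraded faster. Both strands come from the same transcript. Their levels can still separate, by a change in loading or decay. They can also separate for a time after a change in transcription, if the strands decay at different rates. MiR-191 is abundant in many tissues and is often used as a reference miRNA in quantitative PCR, and miR-425 has been described elsewhere as responsive to interleukin 1 signalling.

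The 15 samples were total RNA from cultured mouse lines at passages 20 to 40, in 5 groups of 3. The line αTC1-6 is a glucagonoma line that models pancreatic α cells and βTC1 is a line that models β cells, so each cell type is represented by 1 tumour line. Untreated βTC1 were taken at 24 h, and αTC1-6 at 24 h and at 48 h, either untreated or with a cocktail of IL1b at 50 IU/ml, IFNg at 1000 IU/ml and TNFa at 1000 IU/ml. No cytokine-treated βTC1 samples were analysed here, and the study's methods describe the replicates as independent biological ones, while the labels only number them.

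The level of each miRNA was read as a Ct, the PCR cycle at which its signal crosses a threshold, so a Ct higher by 1 cycle stands for about a halving. ΔCt is the Ct minus that of miR-26a in the same sample, and log2 differences are differences of ΔCt with the sign turned, so that a negative value is a lower level. MiR-26a had a Ct from 16.97 to 18.98 over the 15 samples. A Ct under 40 was found for 214 to 337 of the 375 miRNA assays of card A and for a median of 185 of the 209 of card B. MiR-375, an abundant islet endocrine miRNA, had a Ct from 13.42 to 15.98 in every sample of both lines. The main strands were measured on card A, and the star strands were on card B, each card being a separate PCR plate, and miR-26a is on card A.

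The sequences of the 4 mature strands show which products the assays were named for. Capitals mark the seed, bases 2 to 8, which pairs with targets. The older names were matched to RefSeq entries of build GRCm38.p6, with the plain names as the 5p strand and the star names as the 3p strand.
mmu-miR-191 (miR-191-5p): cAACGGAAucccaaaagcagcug
mmu-miR-191* (miR-191-3p): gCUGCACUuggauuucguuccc
mmu-miR-425 (miR-425-5p): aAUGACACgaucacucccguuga
mmu-miR-425* (miR-425-3p): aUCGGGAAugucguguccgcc

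The 4 seeds differ from each other. Among the 1738 mature mouse miRNAs of the RefSeq table, 1 other shared the seed of mmu-miR-425, namely mmu-miR-489-3p, and 0 others shared any of the remaining seeds. The strands are 21 to 23 bases long. Both hairpins lie on the plus strand of chromosome 9, Mir191 at chr9:108568319-108568392 and Mir425 at chr9:108568777-108568861 and inside the span of the protein-coding gene Dalrd3 at chr9:108567484-108572773. The hairpins are shown because each holds a measured pair, with the main strand and then the star strand in capitals.
Mir191 hairpin: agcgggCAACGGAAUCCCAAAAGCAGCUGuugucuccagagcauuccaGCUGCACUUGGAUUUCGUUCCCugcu
Mir425 hairpin: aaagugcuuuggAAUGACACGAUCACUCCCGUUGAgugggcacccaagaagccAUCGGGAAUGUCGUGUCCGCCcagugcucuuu

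All 4 strands had a Ct under 40 in all 15 samples, and the order of the strands by Ct was the same in every group. Mmu-miR-191 crossed earliest, at a Ct of 16.63 to 18.47 with a median of 17.94. Mmu-miR-425 followed at 20.85 to 22.98, and mmu-miR-425* at 24.24 to 26.97. Mmu-miR-191* crossed latest, at 28.84 to 31.73 with a median of 29.70. The star strand of miR-191 thus crossed about 11 to 14 cycles after its main strand, and that of miR-425 about 2 to 5 cycles after its own. These gaps also contain the efficiencies of different assays and of the preamplification, so they are not ratios of copies, but changes of a gap between samples do not contain them if the efficiencies were constant.

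**Figure D1:**
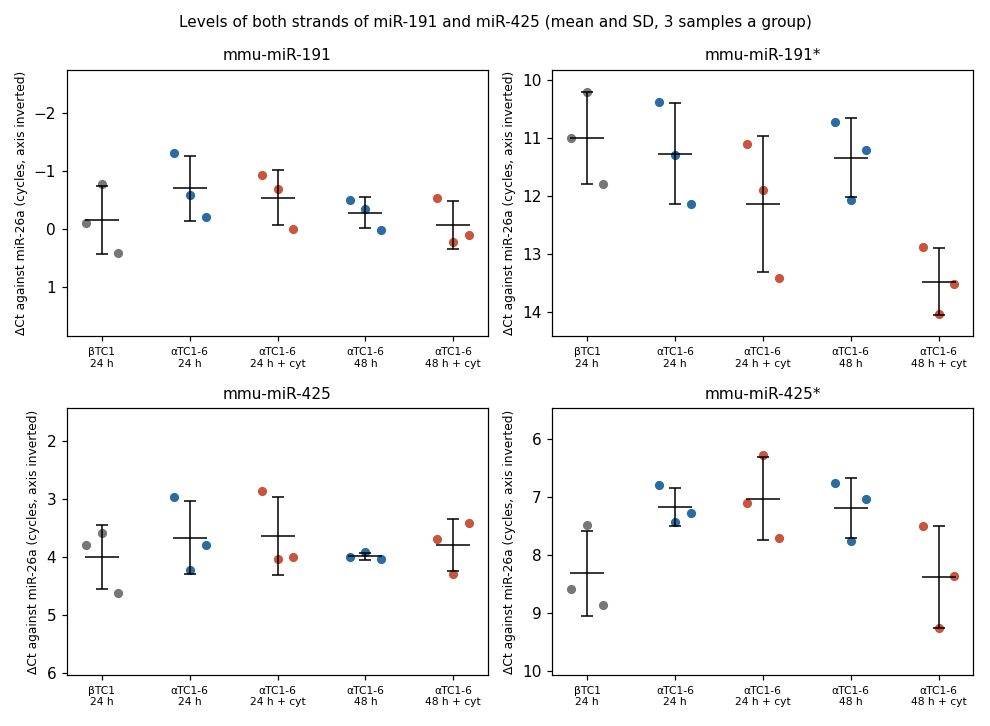
ΔCt against miR-26a, in cycles, of mmu-miR-191, mmu-miR-191*, mmu-miR-425 and mmu-miR-425* in the 15 samples (points), with the mean and SD of the 3 samples of each group; the axis is inverted so that up is a higher level, and each panel spans the same number of cycles. The 3 points of mmu-miR-191* after 48 h of cytokines, from 12.87 to 14.02, lie below all 3 of the 48 h controls, while the groups of mmu-miR-191 overlap.

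After 48 h of cytokines the main strand of miR-191 overlapped the controls and the star strand was lower in every sample. The ΔCt of mmu-miR-191 was -0.50, -0.35 and 0.02 in the 3 untreated αTC1-6 samples and -0.53, 0.23 and 0.10 in the 3 treated ones. These ranges overlap, and the log2 difference was -0.21 (SE 0.35 from the limma fit). The ΔCt of mmu-miR-191* was 10.72, 12.07 and 11.21 in untreated cells and 12.87, 14.02 and 13.52 in treated cells. All treated samples lay below all untreated ones in level, with a log2 difference of -2.14 (SE 0.52), that is a level at 22.7% of the controls. The lower level of the star strand was seen in 3 of 3 pairs of samples with the same replicate number, with log2 differences of -2.15, -1.95 and -2.31. Over all assays, 3 of 534 (0.562%) passed an adjusted p of 0.05 in this comparison, and treated samples lay wholly below untreated ones for 90 of the 513 assays without missing values (17.5%) and for 40 of 190 on card B (21.1%). Since this comparison chose the locus, nothing is read from these shares.

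The lower level at 48 h was read in both wells of mmu-miR-191*. The wells repeat the same samples and hold the values that chose the locus, so they describe the measurement and add no support. The assay was spotted in duplicate, and the wells of a sample differed by a median of 0.06 cycles and by at most 0.78. In 2 of 15 samples they differed by more than 0.5 cycles, and these were cytokine-treated αTC1-6, at 24 h and at 48 h. The log2 difference at 48 h was -2.26 in the first wells (SE 0.45) and -2.02 in the second (SE 0.62).

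Card B as a whole also read lower after cytokines. At 48 h the median log2 difference of the assays tested was -0.83 for card B and -0.33 for card A. Of the 192 assays tested on card B, 30 had a lower value than mmu-miR-191*, and it therefore stood at rank 31 from the lowest. U6 and the small nucleolar RNA controls, which are not miRNAs, crossed later in treated than in untreated samples, by 0.52 cycles on card B and by 0.25 cycles on the other card. When each strand was set against the median of its own card, mmu-miR-191* remained lower, by a log2 difference of -0.90 (SE 0.22), and mmu-miR-191 was at 0.28 (SE 0.23). Against U6 and the small nucleolar RNAs of its card, mmu-miR-191* was at -1.53 (SE 0.58) and mmu-miR-191 at 0.12 (SE 0.46). The direction of mmu-miR-191 thus turned with the reference, and that of mmu-miR-191* did not. Whether the shift of card B came from the cells or from the handling of the plates was not tested.

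**Figure D2:**
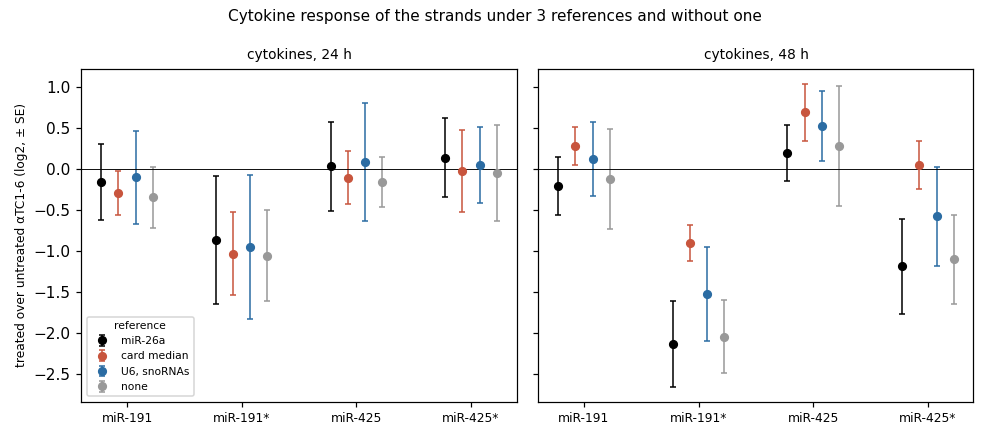
Log2 difference between cytokine-treated and untreated αTC1-6 (vertical axis, with the SE of the limma fit) for the 4 strands at 24 h and 48 h, with miR-26a, the card's median or U6 and small nucleolar RNAs of the card as the reference, and without one. At 48 h mmu-miR-191* lies between -2.14 and -0.90 and mmu-miR-191 between -0.21 and 0.28, while mmu-miR-425* reaches 0.04 with the card's median.

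The gap between the strands within a sample does not depend on miR-26a. It is built from the same Ct values that chose the locus, so it restates the differences above and adds no support. The log2 ratio of star over main strand of miR-191, the Ct of the main strand minus that of the star strand, was -11.22, -12.41 and -11.19 in untreated αTC1-6 at 48 h. It was -13.40, -13.79 and -13.42 in treated cells, wholly below the controls. The difference of the means was -1.92 (SE 0.42, or 0.28 with the replicate number as a block, n = 3 and 3). With each strand against its own card's median the difference was -1.19, from -10.10 ± 0.19 (SD) to -11.29 ± 0.09, and against the small RNA controls of each card it was -1.65. The groups did not overlap under either of these references.

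**Figure D3:**
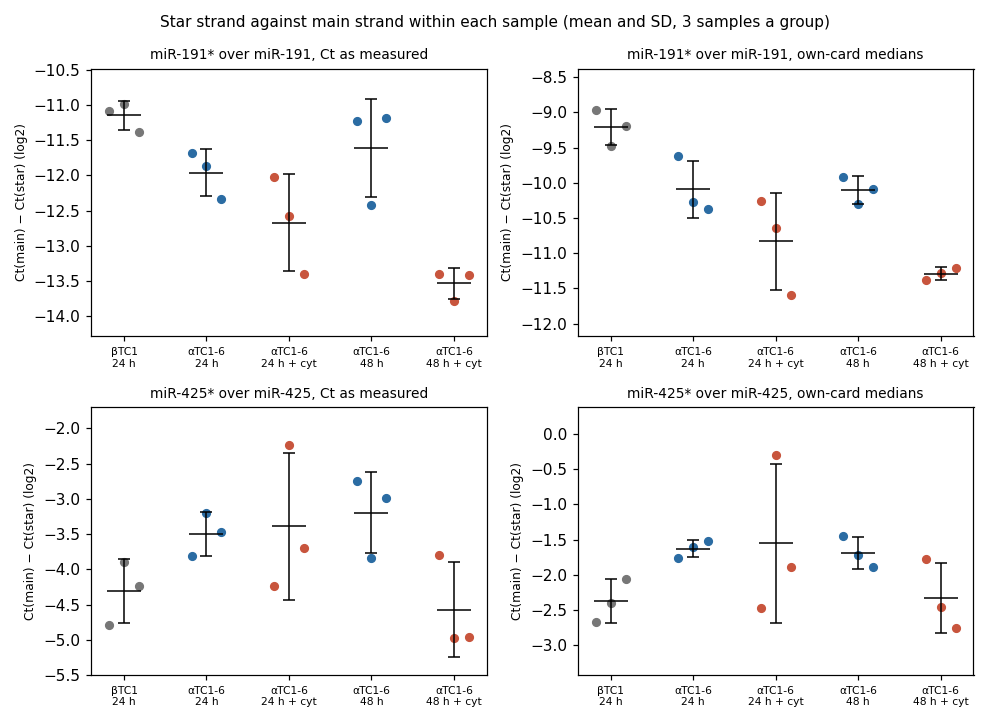
Log2 ratio of star over main strand within each sample (vertical axis, Ct of the main strand minus Ct of the star strand) for miR-191 (top) and miR-425 (bottom), from the Ct as measured (left) and with each strand against the median of its own card (right); points are samples, lines the mean and SD of 3. For miR-191 the treated samples of 48 h lie below the controls of 48 h on both sides, and for miR-425 they overlap.

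To place this gap, it was computed for every hairpin with both strands on the cards, 139 in all, of which 84 had a Ct in all 6 samples of the 48 h comparison. The star strand was lower against its main strand in 58 of the 84 hairpins, with a median of -0.46 and an upper quartile of 0.09. MiR-191 had rank 3 from the lowest, and 15 of the 84 hairpins (17.9%) had treated samples wholly below untreated ones. Against own-card medians the median over hairpins was 0.06, miR-191 had rank 5, and 6 of 84 hairpins (7.14%) had treated samples wholly below. The hairpins below miR-191 with the Ct as measured were miR-200a and miR-322. MiR-200a, of an epithelial miRNA family, had a difference of -3.52, but its strand ratios ranged from -6.71 to 11.44 among the untreated samples alone and the groups overlapped. MiR-322, of the miR-16 family, had a difference of -2.31, and its star strand was close to the limit of detection at a mean Ct of 34.34. Its groups overlapped too. The place of miR-191 in this order rests on the values that chose the locus, so nothing is read from its rank or from its groups being apart.

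**Figure D4:**
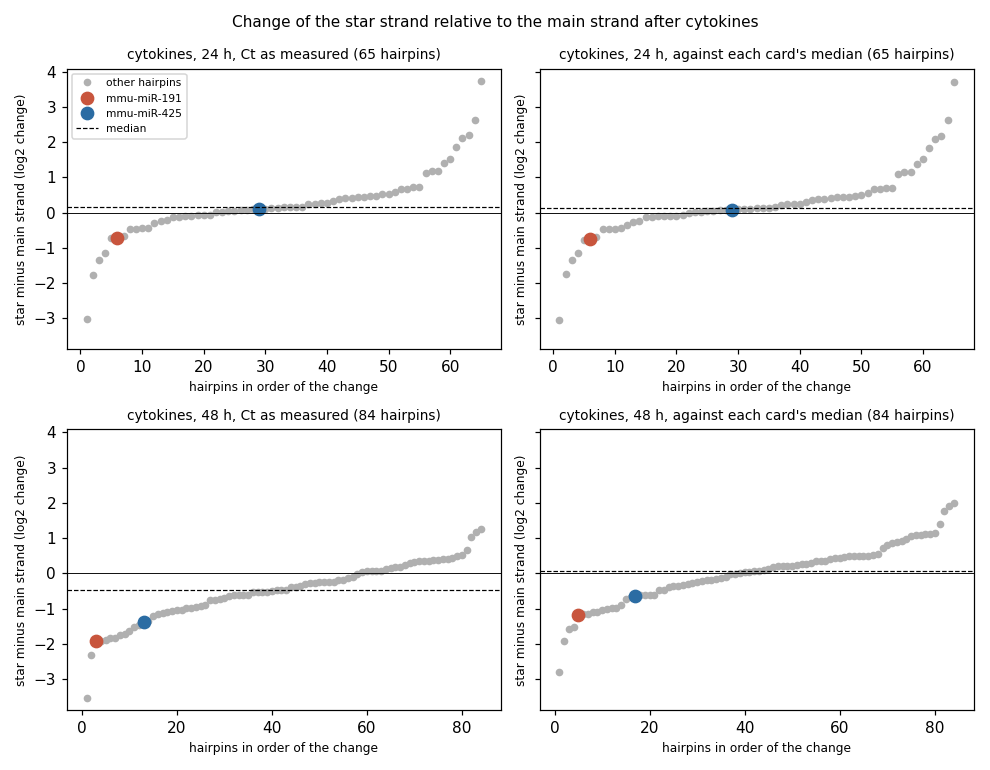
Log2 change of the star strand relative to the main strand after cytokines (vertical axis) for each hairpin with a Ct for both strands in all 6 samples, in order of the change (horizontal axis), at 24 h (top, 65 hairpins) and 48 h (bottom, 84 hairpins), from the Ct as measured (left) and against own-card medians (right). The dashed line is the median, which at 48 h is -0.46 on the left and 0.06 on the right; miR-191 has rank 3 and rank 5 there.

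At 24 h the star strand of miR-191 was also the lower of the pair, but with overlapping groups. The ΔCt of mmu-miR-191 was -1.30, -0.58 and -0.20 in untreated and -0.94, -0.68 and -0.004 in treated αTC1-6, a log2 difference of -0.16 (SE 0.46). For mmu-miR-191* it was 10.38, 11.29 and 12.12 in untreated and 11.09, 11.90 and 13.40 in treated cells, a log2 difference of -0.87 (SE 0.78). Each treated sample lay below the control of its replicate number, with log2 differences of -0.71, -0.61 and -1.28, and with the replicate number as a block the SE was 0.23. The third treated sample weighed most, since the difference was -0.23 without it. The strand ratio differed by -0.71 (SE 0.44, or 0.21 with the block), with a value of -0.34 without that sample, and by -0.74 against own-card medians. Among the 65 hairpins measurable at 24 h the median difference was 0.15, and miR-191 had rank 6 from the lowest. Here 1 of 445 assays (0.225%) passed the adjusted test, and card B was shifted the other way, with a median log2 difference of 0.21 against -0.27 on card A.

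For miR-425, cut from the neighbouring hairpin, the star strand was also lower in each pair of samples at 48 h. The ΔCt of its main strand was 4.01, 3.93 and 4.05 in untreated and 3.70, 4.30 and 3.41 in treated αTC1-6 at 48 h, so that the treated samples lay on both sides of the controls. The log2 difference was 0.19 (SE 0.34). The ΔCt of mmu-miR-425* was 6.76, 7.76 and 7.04 in untreated and 7.49, 9.27 and 8.37 in treated cells, which overlapped, with a log2 difference of -1.19 (SE 0.58). It was lower in 3 of 3 pairs of the same replicate number, with log2 differences of -0.74, -1.501 and -1.33, and the SE with the replicate number as a block was 0.26. Against the median of card B this difference was 0.04 (SE 0.29), so relative to its card mmu-miR-425* did not separate. The star-over-main ratio of miR-425 differed by -1.38 (SE 0.51, or 0.29 with the block), with overlapping groups and a lower ratio in 3 of 3 pairs, and by -0.65 against own-card medians. Whether the responses of the hairpins differed from each other was not tested. It had rank 13 of the 84 hairpins. At 24 h the log2 differences were 0.03 for the main strand (SE 0.54) and 0.14 for the star strand (SE 0.48), and the strand ratio differed by 0.10 (SE 0.63). The ratio of -2.23 in the second treated sample of 24 h, against -4.24 and -3.70 in the others, set most of that spread.

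The next comparison asked whether the strands differed between the cell lines. The βTC1 samples did not enter the choice of the locus, but the 3 αTC1-6 samples were the controls of the 24 h cytokine response. Mmu-miR-191* is therefore given here without a p. Between untreated αTC1-6 and βTC1 at 24 h, 142 of 480 assays passed the limma test (29.6%). None of the other 3 strands did, and 0 of the 3 had an unadjusted p under 0.05. The ΔCt of mmu-miR-191 was -0.10, -0.77 and 0.41 in βTC1, and the log2 difference of αTC1-6 over βTC1 was 0.54 (95% interval -0.82 to 1.91, limma adjusted p = 0.496). For mmu-miR-191* it was 10.99, 10.21 and 11.79 in βTC1, and the difference was -0.27 (SE 0.69). Mmu-miR-425 differed by 0.33 (interval -1.05 to 1.72, limma adjusted p = 0.675). The ΔCt of mmu-miR-425* was 6.80, 7.43 and 7.27 in αTC1-6 and 8.59, 7.48 and 8.87 in βTC1. Its level was higher in all αTC1-6 samples than in any βTC1 sample, as for 78 of 439 assays (17.8%), by 1.15 (interval -0.20 to 2.50, limma adjusted p = 0.318).

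The median log2 difference of the assays tested between the lines was -0.62 for card A and -0.46 for card B, and centring on the card medians moved the members past the threshold in part. Mmu-miR-191 was then higher in αTC1-6 by 1.11 (SE 0.26, limma adjusted p = 0.018) and mmu-miR-425* by 1.65 (SE 0.30, limma adjusted p = 0.024). The share of all assays past the threshold with card medians is not given here, so nothing is read from these calls. Over the 19 alternatives run, the adjusted p of mmu-miR-191 ranged from 0.018 to 0.991 and that of mmu-miR-425* from 0.024 to 0.547. Against U6 and the small nucleolar RNAs, the difference of mmu-miR-191 was 0.02.

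The differences in mean strand ratio of the neighbouring hairpins lay in opposite directions between the lines. The star-over-main ratio of miR-191 was -11.68, -11.87 and -12.33 in αTC1-6 and -11.09, -10.98 and -11.38 in βTC1. It was lower in αTC1-6 by 0.81 (SE 0.23, or 0.11 with the replicate number as a block), with no overlap. The ratio of miR-425 was -3.82, -3.20 and -3.47 in αTC1-6 and -4.80, -3.90 and -4.24 in βTC1. It was higher in αTC1-6 by 0.82 (SE 0.32, or 0.08 with the block), with no overlap. Each gave an exact two-sided permutation p of 0.1, the smallest that 3 against 3 samples allow, and 0.2 after Benjamini-Hochberg adjustment over the 4 strand tests computed. Of the 63 hairpins with a Ct in all 6 samples, 10 were wholly lower in αTC1-6 (15.9%) and 7 wholly higher (11.1%). Groups that lay apart were thus not particular to miR-191 and miR-425. With each strand against the small RNA controls of its card, the miR-191 groups overlapped and differed by -0.33, and those of miR-425 stayed apart, at 1.30.

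Both groups of the last comparison, time in culture without cytokines, were controls of the cytokine readout, so mmu-miR-191* and its strand ratio are given there without a p. Between untreated αTC1-6 at 48 h and at 24 h, the log2 differences were -0.42 for mmu-miR-191 (95% interval -1.47 to 0.63, limma adjusted p = 0.914) and -0.07 for mmu-miR-191* (SE 0.62). They were -0.32 for mmu-miR-425 (interval -1.39 to 0.74, limma adjusted p = 0.914) and -0.02 for mmu-miR-425* (interval -1.07 to 1.02, limma adjusted p = 0.999). The groups overlapped for each strand, 0 of the other 3 strands had an unadjusted p under 0.05, and 29 of 489 assays passed the adjusted test (5.93%). The strand ratio differed by 0.35 for miR-191 (SE 0.45) and by 0.30 for miR-425 (SE 0.37, exact two-sided permutation p = 0.5).

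With miR-26a as the reference, the main strands varied little over the 5 groups. With card medians the lines differed more, by a log2 difference of 1.11 for mmu-miR-191 and 0.90 for mmu-miR-425. The group means of the ΔCt of mmu-miR-191 ran from -0.70 ± 0.56 (SD, n = 3) in untreated αTC1-6 at 24 h, through -0.54 ± 0.48 with cytokines at 24 h, -0.28 ± 0.27 untreated at 48 h and -0.15 ± 0.59 in βTC1, to -0.06 ± 0.41 with cytokines at 48 h. Neighbours in this order differed by less than their SDs. Those of mmu-miR-191* ran from 10.99 ± 0.79 in βTC1, through 11.26 ± 0.87 and 11.33 ± 0.68 in untreated αTC1-6 at 24 h and 48 h and 12.13 ± 1.17 with cytokines at 24 h, to 13.47 ± 0.58 with cytokines at 48 h. Neighbours differed by less than the larger of their SDs except at the last step. The group means of mmu-miR-425 ran from 3.64 ± 0.67 with cytokines at 24 h to 4.004 ± 0.55 in βTC1, less than 1 such SD apart. Mmu-miR-425* formed a lower pair, at 8.31 ± 0.73 in βTC1 and 8.38 ± 0.89 with cytokines at 48 h, and 3 higher groups at 7.03 to 7.19.

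Set against the other miRNAs, the main strands were among the steadiest. The spread of mmu-miR-191* includes the cytokine-treated samples whose values chose it, so its SD is a description only. Of the 278 assays with a Ct in every sample, the SD of the ΔCt over the 15 samples had a median of 0.97. It was 0.47 for mmu-miR-425 and 0.47 for mmu-miR-191, at ranks 10 and 11 from the smallest. Among miRNAs often used as references, the SD was 0.39 for miR-24, 0.48 for miR-26b, 0.49 for miR-484 and 0.53 for miR-93, and from 0.66 to 1.05 for miR-16, miR-25, let-7a and miR-92a, while miR-103 lacked a Ct in some samples. For mmu-miR-425* the SD was 0.84 (rank 105) and for mmu-miR-191* 1.17 (rank 173). These star strands also crossed later than the main strands, and whether the later Ct has a part in their SD was not tested. With card medians as the reference the ranks were 22 for mmu-miR-191, 43 for mmu-miR-425, 124 for mmu-miR-425* and 100 for mmu-miR-191*.

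**Figure D5:**
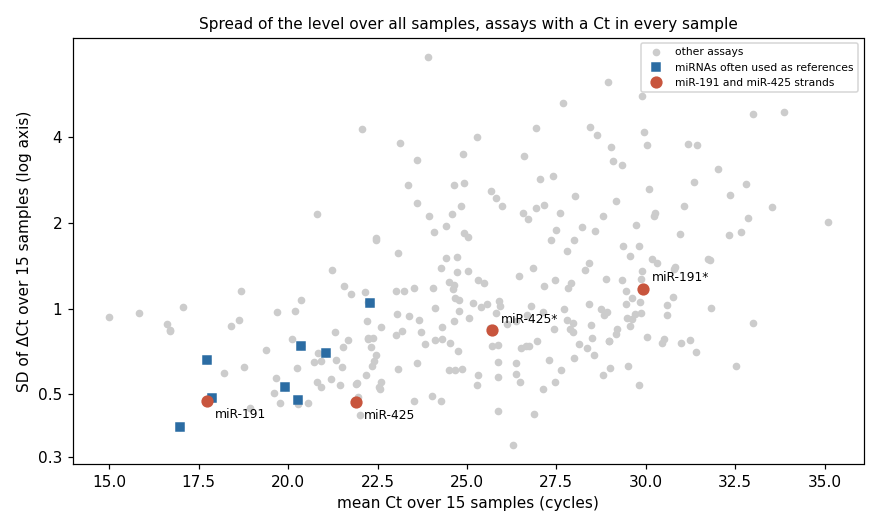
SD of the ΔCt over the 15 samples (vertical, log axis) against the mean Ct (horizontal, cycles) for the 278 assays with a Ct in every sample, with the 4 strands in red and miRNAs often used as references as blue squares. Mmu-miR-191 and mmu-miR-425 lie at the lower edge with an SD of 0.47 each, and the star strands at 0.84 and 1.17.

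Across the 15 samples the ΔCt of the strands of miR-191 had a Pearson r of 0.61, and one of -0.11 when each was taken against its card's median. All ΔCt values share the miR-26a term and the groups share treatments, so these values describe the samples and are not tests. Mmu-miR-191 followed mmu-miR-425* with an r of 0.73 and mmu-miR-425 with one of 0.69, and with card medians these were 0.85 and 0.67. Of the 274 other assays, those most like mmu-miR-191* were miR-149 (r = 0.96), miR-361 (0.92), miR-700 (0.91), let-7a* (0.91) and miR-15b* (0.90), against a median r of 0.50. Of these 5, all but miR-361 are on card B, and with card medians miR-149 (0.86), miR-361 (0.80) and let-7a* (0.74) had the 3 highest r. Let-7a*, the minor strand of a let-7 hairpin, had a log2 difference of -2.17 after 48 h of cytokines, miR-149 one of -2.39 and miR-361 one of -1.42. The samples behind these r include the cytokine-treated ones, so lower values there follow in part from how these assays were picked. The assays most like mmu-miR-191 were miR-384-3p (r = 0.86), rno-miR-29b-2* (0.86), miR-879* (0.86), miR-26b* (0.85) and miR-30a* (0.85), against a median r of 0.38. With card medians their r was 0.80, 0.68, 0.81, 0.52 and 0.60, at ranks from 28 to 80.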

How the data were processed

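MiRNA levels were measured by RT-PCR on TaqMan rodent low density arrays, after reverse transcription and preamplification with primer pools. Per the labels, 15 samples in 5 groups of 3 were profiled. The deposited normalized table holds ΔCt, which are log2 values relative to miR-26a as computed by the authors, with undetermined wells at a Ct of 40. The other deposited table holds Ct values, in which the first well of mmu-miR-191* stands for both, and it was used as an alternative. The relative quantities and the fold changes of samples over controls, as deposited by the authors, were not used. The study names Real-Time Statminer and limma for its own tests.

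Ct values were recovered by adding the Ct of miR-26a, duplicate wells were averaged and blank wells left out (1 to 66 miRNA wells per sample). The negative ΔCt of the samples compared entered lmFit and eBayes of limma 3.58.1 under R 4.3.3 (two-sided, Benjamini-Hochberg within each card, threshold 0.05) for assays detected, at a Ct under 40, in at least as many samples as not. The fit was tested on simulated data. Strand ratios were compared over samples by the exact permutation test in Python 3.11.15 with numpy 2.4.6. In hairpins with 5p and 3p names the strand with the lower mean Ct was taken as the main one. SE of strand ratios are those of a difference of 2 group means.

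The deviations of samples with the same replicate number correlated at 0.28 to 0.48 between treated and untreated αTC1-6 at 24 h and at 0.26 to 0.44 at 48 h, over 278 assays, so these numbers pair the samples. Between the cell lines the correlations were 0.06 to 0.09, against -0.11 to 0.008 for samples of different numbers. Between the times they were -0.04 to 0.24, against -0.22 to 0.20. Whether the numbers pair the samples there was not settled. The members and lists were chosen with earlier results of these data known. Named miRNAs are the members, the 5 assays most like mmu-miR-191 and the 5 most like mmu-miR-191*, the 3 hairpins whose star strand was lowest against the main strand at 48 h, and a list of reference miRNAs. PCR arrays give no counts, and the 3 samples per group limit the precision.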

Additional observations from a re-analysis of the deposited data

How the results depend on the processing

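The lower level of mmu-miR-191* after cytokines kept its direction under all 15 alternatives run at 24 h and all 15 at 48 h. It ranged from -1.39 to -0.23 and from -2.51 to -0.90 on the log2 scale. The strand ratio of miR-191 kept its direction under 12 at each time. These values chose the locus, so this is a description and not support. No well of mmu-miR-191* had a Ct above 35, so the settings for undetermined and high Ct values could not change its value. The replicate block could not either. Centring on card medians moved the values of 48 h by more than the SD between replicates, to 0.28 for mmu-miR-191, -0.90 for mmu-miR-191* and -1.19 for the strand ratio of miR-191. For mmu-miR-425* it gave 0.04 and for its strand ratio -0.65, and mmu-miR-425 was at 0.69 with it and at 0.53 with the small RNA controls. Between the cell lines it took mmu-miR-191 (1.11) and mmu-miR-425* (1.65) past the threshold, with no share over all assays to set them against. It also reversed mmu-miR-191* to 0.24, while the small RNA controls reversed mmu-miR-425 to -0.19. Between untreated 48 h and 24 h samples, Ct without normalization reversed mmu-miR-191* (0.038) and mmu-miR-425* (0.084), and the small RNA controls reversed mmu-miR-425 (0.089). There the strand ratio of miR-191 was reversed by the small RNA controls (-0.056) and by card medians (-0.0090), and that of miR-425 likewise (-0.11 and -0.059). The cytokine values of mmu-miR-191 and mmu-miR-425 at both times, and of mmu-miR-425* and the strand ratio of miR-425 at 24 h, lay within their SE of 0 and changed sign under some references or with a replicate left out. The cause of these changes was not tested.

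With 1 replicate left out in turn, between the cell lines mmu-miR-191* ranged from -0.71 to 0.16 and mmu-miR-425 from -0.011 to 0.61. Between the untreated times mmu-miR-191* ranged from -0.50 to 0.37, mmu-miR-425 from -0.60 to 0.022 and mmu-miR-425* from -0.24 to 0.27. None of the values of mmu-miR-425 and mmu-miR-425* passed the threshold, and mmu-miR-191* is given without a test. A fit with the replicate block left the log2 differences as they were and changed no call between the cell lines or between the untreated times. In the cytokine comparisons the members were not tested and have no call. There the block narrowed the SE of mmu-miR-191* from 0.78 to 0.23 at 24 h and from 0.52 to 0.19 at 48 h. That of mmu-miR-425* at 48 h went from 0.58 to 0.26. That of mmu-miR-191 went from 0.46 to 0.19 at 24 h and from 0.35 to 0.23 at 48 h. The remaining alternatives, among them the treatment of undetermined wells, Ct values above 35 set to 35, the filter, 1 fit over all samples, a prior that follows the mean, adjustment over both cards and the 48 h controls for the cell lines, changed no direction and no call of the strands. With 3 samples a group, the exact tests of strand ratios cannot pass 0.05 under any alternative.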

Other observations

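The Ct values were unevenly spread between whole cycles. Of the 8641 miRNA wells with a Ct, 3112 (36.0%) had a decimal part of 0.9 or more, where an even spread would give 10%. Among the 75 wells of the 4 strands there were 31 (41.3%). Mmu-miR-191* had 11 of 30 such wells (36.7%), near the share of all wells. By group these were 3 of 6 wells in cytokine-treated αTC1-6 at 48 h and 1 of 6 in untreated cells at 48 h. At 24 h they were 4 of 6 and 1 of 6, and 2 of 6 in βTC1. The same split over all assays is not given here. The cause of the uneven spread, and its part in the values above, was not tested.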
